A study of Mus musculus with 7 samples.

Results

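The 34 genes described here mark monocytes and macrophages, and they were followed in RNA from sorted long-term haematopoietic stem cells (LT-HSCs) of mice with and without loss of 1 Srp72 allele. They were taken from a list of symbols, and all 34 were found among 53458 annotated genes. Of these, 19 are typical of macrophages that reside in tissue, 4 are typical of monocytes, and 11 are shared by both cell types. The tested animals were 3 aged C57/BL6 mice of genotype Srp72+/-, called Srp72+/- 1 to Srp72+/- 3. They were compared with 4 aged C57/BL6 mice of genotype Srp72+/+, called WT 1 to WT 4, and each library came from 1 mouse per the series' design text. Srp72 encodes a protein of the signal recognition particle, which brings ribosomes that make secreted proteins to the endoplasmic reticulum. Neither the age of the mice in months nor the part of Srp72 that was altered is given in the sources used here.

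Cells reached the sort gate if they carried Sca1, cKit and CD150 and lacked Ter119, B220, CD3, Mac1, Gr1, Flt3 and CD48. Mac1 is carried by most monocytes and by many macrophages, so the gate is meant to leave these cells out. Monocytes arise in the marrow from myeloid progenitors under the growth factor receptor CSF1R and leave it for the blood through the chemokine receptor CCR2. Resident macrophages of the marrow surround maturing erythroblasts, take up their expelled nuclei, recycle the iron of worn red cells and anchor stem cells in their niche. Many receptors of both cell types signal through small adaptor proteins with tyrosine motifs, among them those encoded by Tyrobp and Fcer1g, and neutrophils use these adaptors too.

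The libraries held between 18054322 and 35247472 estimated reads, with the highest number in Srp72+/- 3, and 3 reads corresponded to between 0.0852 and 0.166 CPM, the reads of a gene scaled to the library total. The labelled cell type was checked with 15 HSC genes, whose summed level in TPM (transcript abundance, with reads corrected for transcript length and library size) was 522, 977 and 693 in Srp72+/- 1 to 3, against 892, 45.8, 885 and 991 in WT 1 to 4. WT 2 therefore stood apart with a low level of stem cell transcripts. It also had the highest summed level of 11 neutrophil genes, 28560 TPM, against between 135.6 and 11730 TPM in the other WT libraries and between 948 and 15650 TPM in Srp72+/-. Because these are bulk libraries, more cells of a type and more RNA per cell cannot be told apart. Directions that rest on WT 2 are given below with and without it.

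Promoters of Ctss, Cd68 and Fcer1g, which moved together across the libraries, were compared with that of Apoe, which ran the other way. Sequences were those of RefSeq on GRCm38.p6, from 250 bases before to 50 bases after the transcription start, and 25 of the 34 members had an entry. The core letters GAGGAA, bound by PU.1, the master transcription factor of the myeloid lineages, were sought on both strands. They stand in capitals in the sequences below, where TTCCTC is the same core on the other strand. Ctss (chr3:95526536-95526835, plus strand) and Cd68 (chr11:69666121-69666420, minus strand) encode a protease and a membrane protein of the phagosome and are shown for the shared members. Fcer1g (chr1:171234300-171234599, minus strand) is shown as the most abundant of them, and Apoe (chr7:19699139-19699438, minus strand) as the contrast.
Ctss: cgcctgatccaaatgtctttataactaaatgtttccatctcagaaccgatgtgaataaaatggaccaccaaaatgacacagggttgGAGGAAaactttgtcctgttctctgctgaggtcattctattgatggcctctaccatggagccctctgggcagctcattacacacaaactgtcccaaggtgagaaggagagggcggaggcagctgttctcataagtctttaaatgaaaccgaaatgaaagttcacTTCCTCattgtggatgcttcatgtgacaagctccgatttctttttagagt
Cd68: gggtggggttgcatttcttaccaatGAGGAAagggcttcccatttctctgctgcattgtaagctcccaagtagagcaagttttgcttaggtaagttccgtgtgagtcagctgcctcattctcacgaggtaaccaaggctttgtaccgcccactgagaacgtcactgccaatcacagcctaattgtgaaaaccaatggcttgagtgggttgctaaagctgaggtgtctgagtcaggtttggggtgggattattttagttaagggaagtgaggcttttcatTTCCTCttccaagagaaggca
Fcer1g: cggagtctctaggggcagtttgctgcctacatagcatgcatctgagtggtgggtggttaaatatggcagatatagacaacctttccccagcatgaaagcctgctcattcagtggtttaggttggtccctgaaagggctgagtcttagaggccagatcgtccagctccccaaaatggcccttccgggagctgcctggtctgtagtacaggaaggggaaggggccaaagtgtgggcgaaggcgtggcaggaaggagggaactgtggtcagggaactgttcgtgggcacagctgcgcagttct
Apoe: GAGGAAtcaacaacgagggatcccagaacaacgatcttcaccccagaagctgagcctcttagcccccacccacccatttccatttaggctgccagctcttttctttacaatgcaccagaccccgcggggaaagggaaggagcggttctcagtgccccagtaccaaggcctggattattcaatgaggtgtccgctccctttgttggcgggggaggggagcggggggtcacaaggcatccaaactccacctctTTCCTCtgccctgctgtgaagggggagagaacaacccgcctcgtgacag

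The core occurred 2 times in each of the Ctss, Cd68 and Apoe windows and 0 times in that of Fcer1g. It was present in 14 of 25 member promoters (56%), against 7652 of 27025 promoters of all genes (28.3%), counting the first listed promoter of each gene. By class these were 8 of 12 resident macrophage promoters, 0 of 4 monocyte promoters and 6 of 9 shared promoters. Ccr2, Clec4a2 and Lgals3, which had the same order of libraries as Ctss, had 0 matches of this core. The letters TGCTGA, the core of the recognition element of MAF, a transcription factor of macrophages, occurred in 7 of the 25 (28%), against 5166 of 27025 (19.1%). A match is a description of these letters and not a site. Apoe carried the core in the window shown and Fcer1g did not, though further listed promoters of Apoe held 0 and 1 matches. Whether the core goes with the pattern of a member across libraries was not tested.

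The adaptor genes Fcer1g and Tyrobp had the highest mean levels among the members, as the map of all members by library shows. Fcer1g, which encodes the common gamma chain of Fc receptors, measured 88.1, 84.6 and 26.5 TPM in Srp72+/- 1 to 3, against 5.97, 183, 106 and 28.2 TPM in WT 1 to 4. WT 2 was the highest and WT 1 the lowest of the 7 libraries, and the Srp72+/- values lay between them. Tyrobp, which encodes the adaptor DAP12, measured 100.5, 56.9 and 6.38 TPM in Srp72+/-, against 1.09, 149, 74.3 and 15.8 TPM in WT. Fcgr3, a low-affinity receptor for IgG that pairs with the gamma chain, measured 15, 5.98 and 1.12 TPM in Srp72+/-, against 0.252, 19.2, 5.17 and 3.80 TPM in WT. All 3 genes thus had WT 2 on top and WT 1 at the bottom, and Srp72+/- 1 came next to WT 2 for Tyrobp and Fcgr3, as WT 3 did for Fcer1g. Fcgr1, the high-affinity IgG receptor CD64 of macrophages, was much lower, at 0.128, 0.341 and 0.577 TPM in Srp72+/- and 0.0188, 0.964, 0.0645 and 0.0146 TPM in WT, and it had 3 reads or fewer in 3 of the WT libraries.

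**Figure D1:**
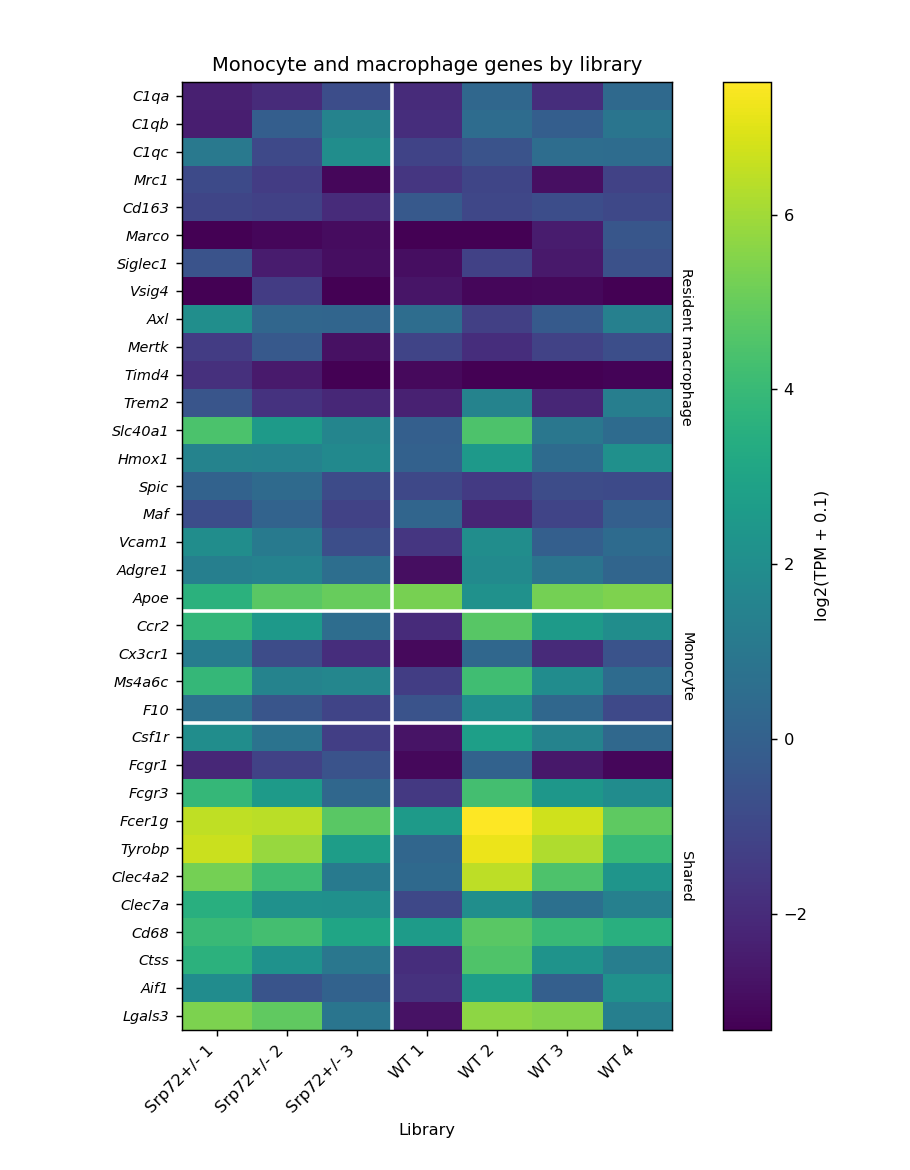
Level of each of the 34 members in each library, as log2(TPM + 0.1), with the 3 Srp72+/- libraries left of the 4 WT libraries and the members in rows by class. The shared and monocyte rows are bright in WT 2 and Srp72+/- 1 and dark in WT 1, most resident macrophage rows are dark throughout, and Apoe is darkest in WT 2.

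Among the other shared members, Csf1r encodes the receptor for CSF1 that macrophages and their precursors need to survive. It measured 3.87, 1.62 and 0.308 TPM in Srp72+/-, against 0.0501, 6.90, 2.75 and 1.16 TPM in WT, so that WT 1 to 4 spanned a wider range than Srp72+/- 1 to 3. Clec4a2, an inhibitory lectin receptor, measured 37.5, 17.8 and 2.12 TPM in Srp72+/-, against 1.21, 87.1, 22.1 and 4.94 TPM in WT. Lgals3, which encodes the carbohydrate-binding protein galectin-3, measured 41.0, 28.9 and 1.75 TPM in Srp72+/-, against 0.0441, 50.4, 45.1 and 2.5 TPM in WT. Lgals3 thus had the widest span of the shared members, and its value in WT 1 rested on 2 reads. Ctss, the lysosomal protease cathepsin S, measured 12.5, 4.53 and 1.87 TPM in Srp72+/-, against 0.168, 23.0, 4.63 and 2.35 TPM in WT.

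Cd68, an abundant glycoprotein of phagocyte lysosomes, varied least among the shared members. It measured 16.1, 19.3 and 8.21 TPM in Srp72+/-, against 6.08, 26.5, 16.4 and 11.2 TPM in WT, and the groups overlapped. Clec7a, which encodes the beta-glucan receptor dectin-1, was the only shared member whose own highest level lay in Srp72+/- 1. It measured 11.3, 4.31 and 4.21 TPM in Srp72+/-, against 0.413, 4.00, 1.52 and 2.53 TPM in WT. The groups did not overlap in TPM, though 4.21 TPM in Srp72+/- 3 was close to 4.00 TPM in WT 2, whereas in CPM Srp72+/- 2 and 3 lay below WT 2. The share of all genes without overlap in TPM was not computed. Aif1, an actin-binding protein of macrophages, lay between 0.596 and 3.80 TPM in Srp72+/- and between 0.194 and 6.67 TPM in WT.

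Of the 4 monocyte genes, Ccr2 encodes the chemokine receptor that lets monocytes leave the marrow. It measured 14.4, 5.56 and 1.35 TPM in Srp72+/-, against 0.151, 26.0, 5.81 and 3.85 TPM in WT. Ms4a6c, a membrane protein gene of monocytes, measured 14.9, 2.77 and 3.02 TPM in Srp72+/-, against 0.293, 18.4, 3.71 and 1.28 TPM in WT. In both genes WT 2 and Srp72+/- 1 were the highest libraries and WT 1 the lowest. F10, the coagulation factor X gene, measured 1.61, 0.618 and 0.366 TPM in Srp72+/-, against 0.591, 4.13, 1.13 and 0.419 TPM in WT. Cx3cr1, the fractalkine receptor of patrolling monocytes and some macrophages, measured 2.22, 0.469 and 0.170 TPM in Srp72+/-, against 0.0201, 1.11, 0.142 and 0.590 TPM in WT. Cx3cr1 was the monocyte gene with its highest level in Srp72+/- 1, and its annotation overlaps 9 other genes, of which Wdr48 reached 59.2 CPM, so its reads are uncertain.

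These members shared an order of libraries with the neutrophil genes. The summed neutrophil level was highest in WT 2, followed by Srp72+/- 1, WT 3, Srp72+/- 2, WT 4, Srp72+/- 3 and WT 1, and the summed levels of the shared and of the monocyte members followed exactly this order. Single members that did so in CPM were Ccr2, Csf1r, Tyrobp, Clec4a2, Ctss and Lgals3, or 6 of 31 members of at least 1 CPM on average (19.4%), against 97 of 17439 genes of that level (0.556%). WT 2 was the highest library for 13 of the 15 shared and monocyte members, and WT 1 was the lowest for 13 of them. Among all 17439 genes, WT 2 was the highest for 16% and WT 1 the lowest for 13%. The sum of 20 other monocyte genes had this order too, at 3751, 2117 and 405.2 TPM in Srp72+/-, against 126.8, 5611, 2327 and 810 TPM in WT. Itgam, which encodes the Mac1 antigen that the gate excludes, measured 34, 14.2 and 15.5 TPM in Srp72+/-, against 4.05, 49.9, 23.5 and 13.6 TPM in WT. The part of other mature blood cells in these orders was not tested.

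For shared members the level relative to neutrophil genes was more alike between libraries than the level itself. Shared members summed to 2.11%, 2.97% and 5.69% of the neutrophil TPM in Srp72+/- 1 to 3, against 11.4%, 1.95%, 2.38% and 2.53% in WT 1 to 4. The 2 libraries with the fewest neutrophil transcripts, WT 1 and Srp72+/- 3, thus had the highest percentages. Summed levels themselves were 330, 225 and 54.0 TPM in Srp72+/-, against 15.5, 557, 279 and 76.9 TPM in WT. Monocyte members summed to 33.1, 9.41 and 4.90 TPM in Srp72+/-, against 1.05, 49.6, 10.8 and 6.14 TPM in WT. Their share of the neutrophil TPM lay between 0.0921% in WT 3 and 0.778% in WT 1. Resident macrophage members did the reverse of the shared members. Their share ran from 0.167% in WT 2 to 34.3% in WT 1, and their sum lay between 46.5 and 64.1 TPM. The part of neutrophil RNA in these levels was not tested.

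**Figure D2:**
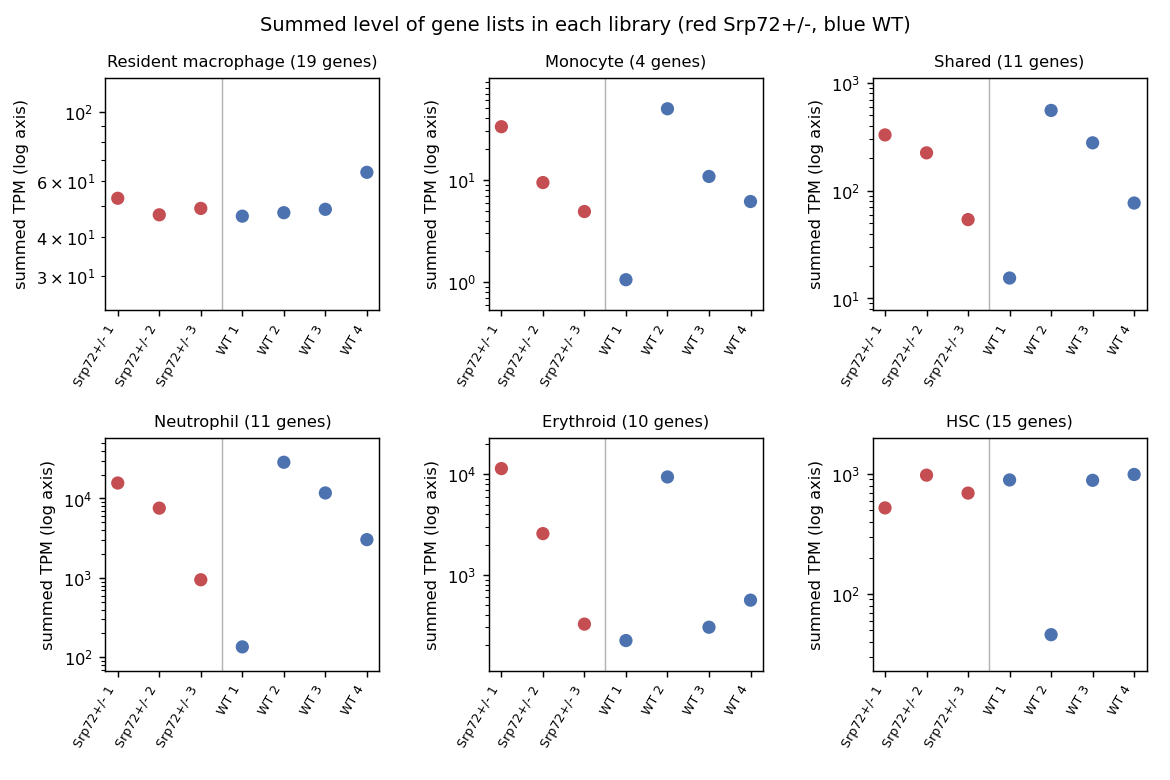
Summed TPM (log axis) of the 3 member classes in the upper row and of the neutrophil, erythroid and HSC gene lists in the lower row, 1 point per library, with Srp72+/- in red left of WT in blue. Monocyte, shared and neutrophil panels have the same order of libraries, whereas the resident macrophage sum lies between 46.5 and 64.1 TPM in every library.

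Most genes that define resident macrophages were below 5 TPM in all 7 libraries, with Apoe, Slc40a1 and Hmox1 above it in some. The summed level of the 19 resident macrophage members was 53.0, 46.9 and 49.2 TPM in Srp72+/-, against 46.5, 47.7, 48.9 and 64.1 TPM in WT. This even sum was made of parts that ran in opposite directions. Apoe, which encodes the lipid carrier apolipoprotein E, measured 12.2, 26.9 and 31.5 TPM in Srp72+/-, against 39.4, 4.36, 38.0 and 43.3 TPM in WT. It was lowest in WT 2 and next lowest in Srp72+/- 1, the 2 libraries with the lowest HSC sum. Apoe made up 23.0%, 57.3% and 64.0% of the resident macrophage sum in Srp72+/-, against 84.8%, 9.16%, 77.7% and 67.5% in WT. Without Apoe the remaining 18 members summed to 40.8, 20.1 and 17.7 TPM in Srp72+/-, against 7.06, 43.3, 10.9 and 20.9 TPM in WT, with WT 2 and Srp72+/- 1 on top.

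The chains of complement C1q, which tags dying cells and microbes for uptake and which macrophages secrete, were near the floor in several libraries. C1qa, C1qb and C1qc lie next to each other on the minus strand of chromosome 4 (GRCm38, chr4:136880129-136898803), and each had 1 annotated transcript with reads. C1qc measured 1.98, 0.427 and 3.88 TPM in Srp72+/-, against 0.354, 0.579, 1.38 and 1.34 TPM in WT. C1qb measured 0.0860, 0.831 and 2.75 TPM in Srp72+/-, against 0.166, 1.31, 0.835 and 1.73 TPM in WT. C1qa measured 0.0927, 0.150 and 0.494 TPM in Srp72+/-, against 0.149, 1.13, 0.169 and 1.19 TPM in WT. The chains did not keep 1 ratio between libraries, since Srp72+/- 1 held 76 reads of C1qc and 3 reads each of C1qa and C1qb, and WT 2 held 31 reads of C1qc and 51 of C1qa.

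Scavenger receptors, which bind debris, sialylated cells or haemoglobin, were all below 1 TPM in every library. Cd163, the receptor for haemoglobin bound to haptoglobin, measured 0.384, 0.331 and 0.149 TPM in Srp72+/-, against 0.719, 0.388, 0.488 and 0.405 TPM in WT. All Srp72+/- values of Cd163 lay below all WT values, though the nearest pair, Srp72+/- 1 and WT 2, differed by little. The WT 2 value lay on the transcripts Cd163-202 (0.244 TPM) and Cd163-203, which retains an intron (0.144 TPM). Cd163-201, which held 100% of the level in every other library, was listed at 0 in WT 2. The mannose receptor gene Mrc1 ranged between 0.0133 and 0.436 TPM in Srp72+/- and between 0.0355 and 0.387 TPM in WT. Siglec1, which encodes the sialic acid receptor CD169 of marrow macrophages, ranged between 0.0320 and 0.587 TPM in Srp72+/- and between 0.0338 and 0.549 TPM in WT. Marco had 63 reads in WT 4 and at most 6 in any other library, and Vsig4, a complement receptor gene, had at most 3 reads in every library.

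Receptors for dying cells were also low. Axl, a receptor tyrosine kinase that binds dying cells through GAS6, measured 3.95, 1.08 and 1.07 TPM in Srp72+/-, against 1.35, 0.318, 0.741 and 2.53 TPM in WT. In CPM the order differed, at 4.41, 4.41 and 7.01 in Srp72+/-, against 6.6, 2.87, 2.93 and 7.98 in WT. In Srp72+/- 1 the retained-intron transcripts Axl-207 and Axl-208 held 1.82 and 1.80 TPM, and the coding Axl-201 held 0.11 TPM. Mertk, a relative of Axl, ranged between 0.0411 and 0.716 TPM in Srp72+/- and between 0.170 and 0.508 TPM in WT. Trem2, a lipid receptor that signals through DAP12, measured 0.618, 0.202 and 0.131 TPM in Srp72+/-, against 0.0969, 2.74, 0.124 and 2.40 TPM in WT, with WT 2 and WT 4 above the rest. Most of the TPM in WT 2 and WT 4 lay on the processed transcript Trem2-204, at 1.72 and 2.15 TPM. In CPM the gap was smaller, at 4.7 in WT 2 and 2.84 in WT 4, against 1.11 to 2.03 in the other libraries. Timd4, a receptor for phosphatidylserine, had 16 and 6 reads in Srp72+/- 1 and Srp72+/- 2 and between 0 and 2 in every other library.

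Of the genes for iron and heme, Slc40a1 had the highest mean level, and Hmox1 was above it in Srp72+/- 3, WT 1 and WT 4. Slc40a1, which encodes the iron exporter ferroportin and is also used by erythroid cells, measured 21.6, 5.97 and 2.98 TPM in Srp72+/-, against 0.867, 22.7, 1.88 and 1.27 TPM in WT. The high libraries, WT 2 and Srp72+/- 1, were also those with the highest sum of 10 erythroid genes, which was 11430, 2577 and 324.1 TPM in Srp72+/- 1 to 3, against 222.4, 9434, 301.7 and 561 TPM in WT 1 to 4. Hmox1, the heme oxygenase that frees iron from heme, ranged between 2.68 and 3.44 TPM in Srp72+/- and between 0.929 and 5.50 TPM in WT. Spic, a transcription factor gene that red pulp and marrow macrophages need for iron recycling, measured 0.968, 1.23 and 0.461 TPM in Srp72+/-, against 0.407, 0.261, 0.481 and 0.436 TPM in WT. The part of erythroid RNA in the Slc40a1 level was not tested.

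Of the remaining resident macrophage genes, Vcam1 encodes the adhesion molecule by which island macrophages hold erythroblasts. It measured 3.91, 2.04 and 0.503 TPM in Srp72+/-, against 0.228, 3.83, 0.862 and 1.28 TPM in WT. Adgre1, which encodes the F4/80 antigen, measured 2.47, 2.66 and 1.40 TPM in Srp72+/-, against 0.0313, 3.54, 1.71 and 1.06 TPM in WT, and its value in WT 1 rested on 1 read. Maf, a transcription factor of resident macrophages, ranged between 0.343 and 0.999 TPM in Srp72+/- and between 0.117 and 1.06 TPM in WT, with its lowest level in WT 2.

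**Figure D3:**
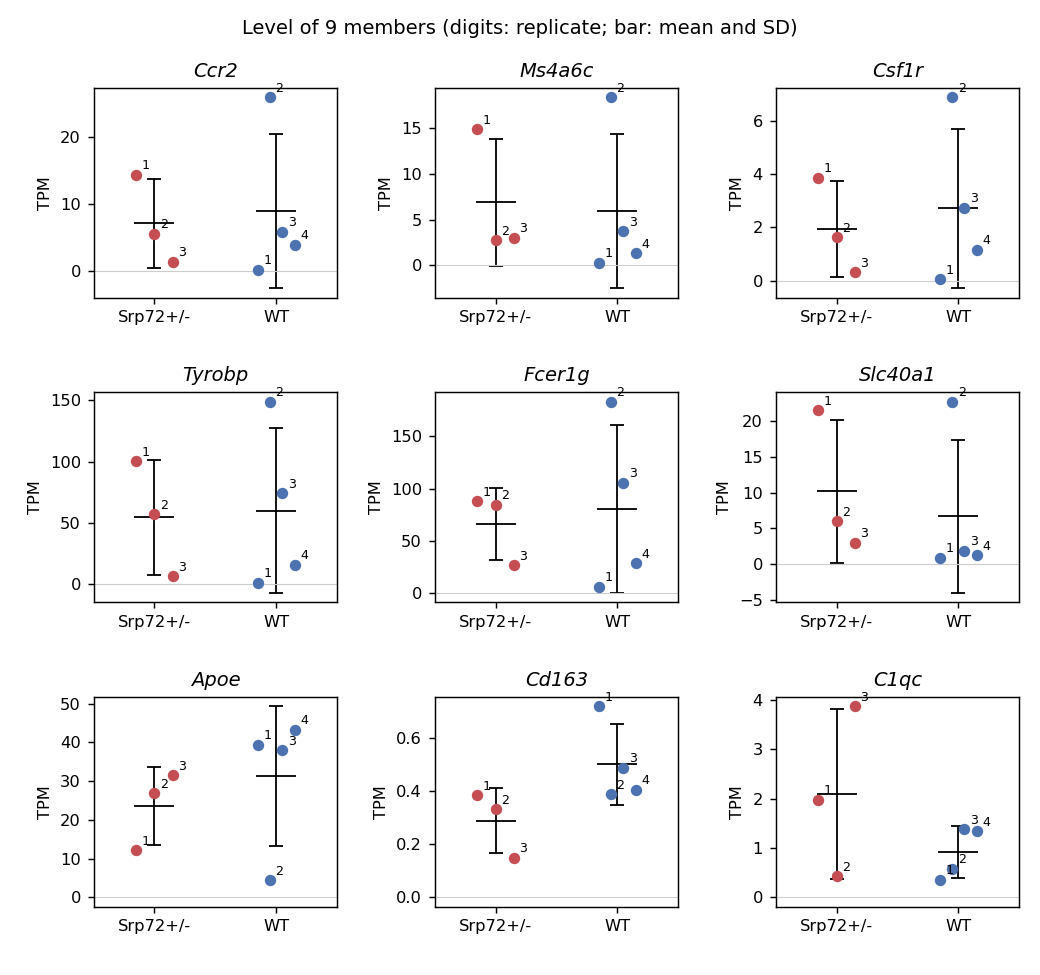
TPM of 9 members in Srp72+/- (red, left, n = 3) and WT (blue, right, n = 4), with the replicate number beside each point and the mean and SD as a bar. WT 2 and Srp72+/- 1 are on top for Ccr2, Ms4a6c, Csf1r, Tyrobp and Slc40a1 and at the bottom of their groups for Apoe, and the groups are apart for Cd163.

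The balance of monocyte to resident macrophage members followed the same libraries. Monocyte TPM divided by resident macrophage TPM was 0.625, 0.201 and 0.0996 in Srp72+/- 1 to 3, against 0.0227, 1.04, 0.221 and 0.0957 in WT 1 to 4. Resident macrophage members made up 12.7%, 16.7% and 45.5% of all member TPM in Srp72+/-, against 73.8%, 7.29%, 14.4% and 43.6% in WT. Both measures depend strongly on Apoe, which held 84.8% of the resident macrophage sum in WT 1 and 9.16% in WT 2. Without Apoe that sum was 7.06, 43.3 and 10.9 TPM in WT 1, WT 2 and WT 3, against 46.5, 47.7 and 48.9 TPM with it. In WT 1 Adgre1 had 1 read and the C1q chains summed to 0.669 TPM. Apoe was 2.34%, 2.75% and 4.55% of the HSC sum in Srp72+/- 1 to 3, against 4.42%, 9.53%, 4.29% and 4.37% in WT 1 to 4. Which cells Apoe came from was not tested, so both measures describe gene lists and not cells. Within each genotype the monocyte to resident macrophage ratio spanned more than the difference between genotypes, and no p is given for sums over chosen genes. The mean summed TPM was 49.7 ± 3.1 in Srp72+/- and 51.8 ± 8.3 in WT for resident macrophage members (SD, n = 3 and 4), and 15.8 ± 15.2 and 16.9 ± 22.2 for monocyte members. For shared members it was 203 ± 139 TPM in Srp72+/- and 232 ± 244 TPM in WT. Without WT 2 the monocyte sum in Srp72+/- was 2.64 times that of WT, compared with 0.935 times with all libraries, and the shared sum was 1.64 times, compared with 0.875 times. Without Srp72+/- 1 the ratios were 0.423 for monocyte and 0.601 for shared members.

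**Figure D4:**
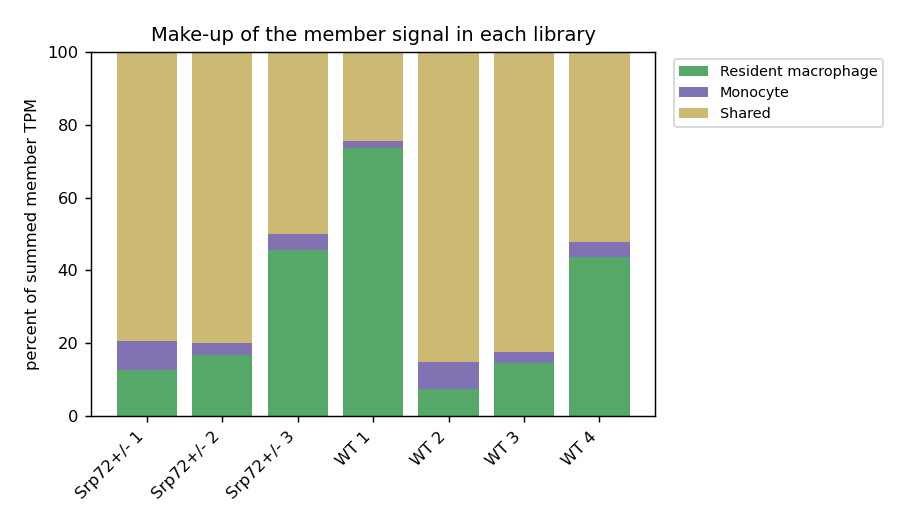
Percent of the summed TPM of all 34 members held by the resident macrophage, monocyte and shared classes, in stacked bars per library, Srp72+/- left of WT. Resident macrophage members hold 73.8% in WT 1 and 7.29% in WT 2, and the Srp72+/- libraries lie between them. Apoe alone holds 84.8% of the resident macrophage sum in WT 1 and 9.16% in WT 2.

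No member passed the test for a difference between Srp72+/- and WT. The test (edgeR quasi-likelihood, Benjamini-Hochberg adjustment over 20314 genes) called 0 genes at an adjusted p of 0.05, which is 0% of those tested. Without adjustment, 365 genes (1.8%) and 0 members had a p below 0.05, and DESeq2 called 9 genes (0.0447%) and 0 members. In DESeq2 552 of 20154 genes and 1 member, Cd163, had an unadjusted p below 0.05. Of the members, 31 passed the filter on low counts and Marco, Vsig4 and Timd4 did not. Fitted values were higher in Srp72+/- for 8 and lower for 23 of the tested members, with a median log2 fold change of -0.54, against -0.0067 over all tested genes, of which 49.3% had higher values. The medians were -0.22 for resident macrophage, -0.70 for monocyte and -0.68 for shared members. The direction rested on WT 2, as without it the counts were 22 higher and 7 lower with a median of 0.60, and 15 members turned from lower to higher. Without WT 2 and Srp72+/- 1 they were 13 higher and 17 lower, with a median of -0.029.

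Cd163 had the smallest unadjusted p among the members. It lies on the plus strand of chromosome 6 (ENSMUSG00000008845, GRCm38, chr6:124304656-124330527). The fit gave a log2 fold change of -1.03 ± 0.46 (SE), with a 95% confidence interval of -2.09 to 0.033. In edgeR the p was 0.056 before and 0.9998 after adjustment, and in DESeq2 it was 0.0162 before and 0.99995 after adjustment. In CPM it was also the sole tested member whose libraries did not overlap between the groups, as was so for 3.51% of all tested genes, 0.812% with lower and 2.7% with higher values in Srp72+/-. Leaving out any 1 library kept its log2 fold change between -1.34 and -0.82. C1qa, F10 and Trem2 followed among the members with lower values, at -1.53 ± 1.13, -1.34 ± 0.99 and -0.71 ± 0.67 (log2 fold change ± SE). With higher values these were C1qc at 1.26 ± 0.84, Spic at 0.59 ± 0.47, Clec7a at 0.79 ± 0.73 and Cx3cr1 at 0.59 ± 1.26. Single libraries decided several sizes, as C1qc was at 0.13 and C1qa at -2.98 without Srp72+/- 3, Spic was at 0.24 without Srp72+/- 2, and Trem2 was at -0.082 and F10 at 0.26 without WT 2. With a transcript length offset Trem2 was at -2.61. In edgeR's quasi-likelihood test with Benjamini-Hochberg adjustment, the adjusted p was 0.9998 for all 8 of these members.

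For the abundant members the intervals were wide. The log2 fold change was -1.01 ± 1.43 (SE) for Ccr2, -0.39 ± 1.35 for Ms4a6c and -1.07 ± 1.31 for Csf1r. For Ccr2 the 95% confidence interval of the ratio of Srp72+/- to WT ran from 0.0512 to 4.84. Fcer1g was at -0.76 ± 1.01, Tyrobp at -0.68 ± 1.38, Clec4a2 at -1.20 ± 1.39 and Cd68 at -0.55 ± 0.62. Of the resident macrophage genes, Slc40a1 was at -0.049 ± 1.08, Axl at 0.016 ± 0.52 and Apoe at -0.33 ± 0.62. None of the 31 tested members had an interval that lay within a 2-fold difference in both directions, against 4631 of all tested genes (22.8%). For every tested member a 2-fold difference in at least 1 direction thus lay within the interval.

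**Figure D5:**
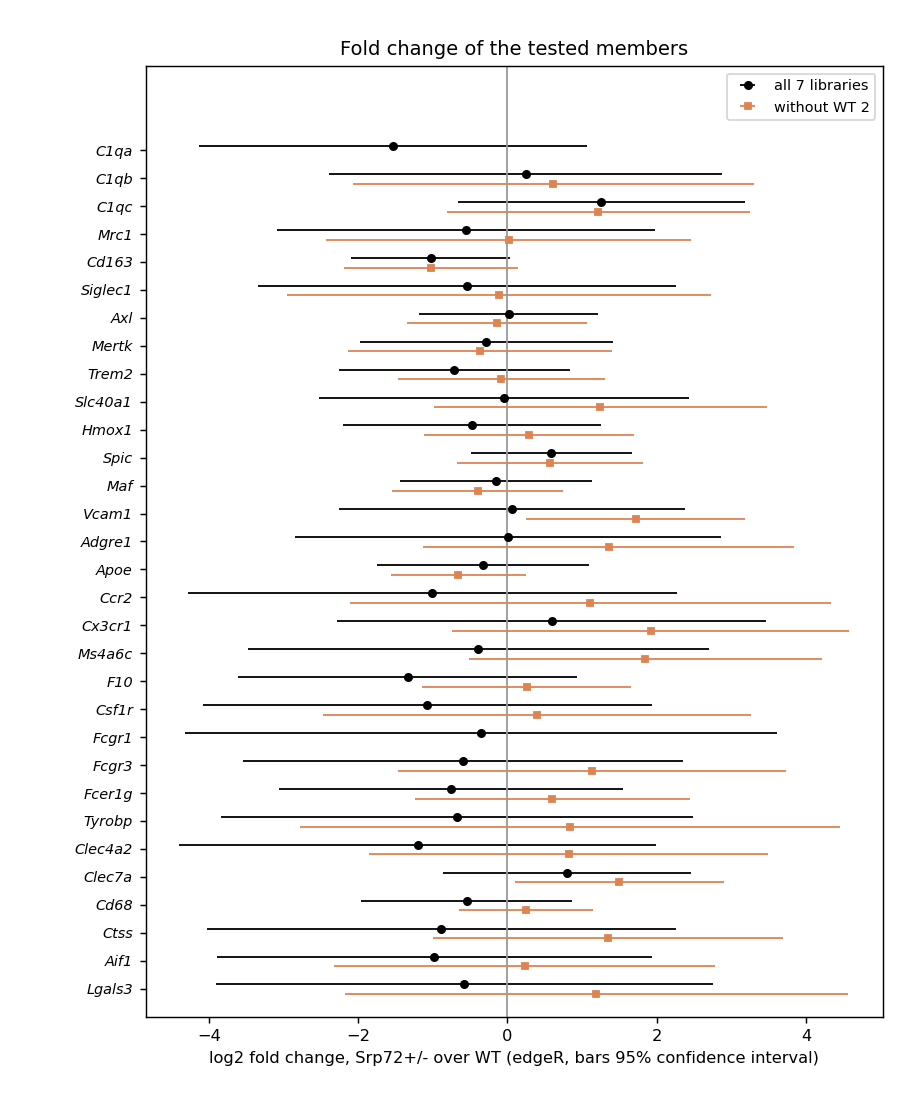
Log2 fold change of Srp72+/- over WT for the 31 tested members from edgeR, with 95% confidence intervals, for all 7 libraries (black circles) and without WT 2 (orange squares, absent for C1qa and Fcgr1, which then failed the filter). Intervals of all members include 0 with all libraries, and most orange points lie right of the black ones.

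Without WT 2, Vcam1 had a log2 fold change of 1.72 (95% confidence interval 0.25 to 3.19) and Clec7a of 1.5 (0.097 to 2.90). Their unadjusted p-values in edgeR were 0.0269 and 0.0387, and the adjusted p of both was 0.977. In this fit 2 of 29 tested members and 962 of 19856 genes had an unadjusted p below 0.05, and 0 genes were called. Leaving out WT 2 was chosen after seeing the data. Vcam1 was at 0.059 with all libraries. Srp72+/- 1, the library with the highest Clec7a level, decided the direction of Clec7a, which was at -0.024 without it.

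Where Salmon placed the reads of a gene bears on its TPM. For 7 of the 34 members less than 50% of the summed TPM lay on protein-coding transcripts, namely Aif1, Axl, Cd68, Clec7a, Slc40a1, Trem2 and Vsig4. Slc40a1-207, an annotated processed transcript, held 68.4% of the Slc40a1 level, at 15.3, 3.85 and 2.74 TPM in Srp72+/- and 17.3 TPM in WT 2, and it was listed at 0 in WT 1, WT 3 and WT 4. The coding transcript Slc40a1-201 measured 5.19, 1.65 and 0.184 TPM in Srp72+/-, against 0.367, 4.01, 1.61 and 1.17 TPM in WT. WT 2 and Srp72+/- 1 were thus the highest for both transcripts. Cd68-203, a processed transcript, held 66.3% of Cd68, and Aif1-205, with a retained intron, held 77.1% of Aif1. Ccr2, Ctss, Csf1r, Clec4a2 and Lgals3 lay wholly on coding transcripts.

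Further genes of the same cells and pathways were read from lists chosen beside the members. Of 20 other monocyte genes, all tested, 19 were lower and 1 was higher in Srp72+/- by fitted value (median -0.74), and 0 passed the test. Without WT 2, a choice made after seeing the data, 5 of 19 tested genes were lower and 14 higher (median 0.75). Their smallest p-values belonged to Vcan, Cebpb and Nr4a1, at -2.52 ± 1.53, -0.90 ± 0.74 and -1.04 ± 0.91 (log2 fold change ± SE). Of 19 other macrophage genes, 14 were tested, 13 with lower and 1 with higher values, with a median of -0.61 and 0 calls. Without WT 2 there were 7 lower and 6 higher of 13 tested (median -0.22). Pld3 was at -0.83 ± 0.36 and Sdc3 at -1.07 ± 0.58 (log2 fold change ± SE). Cd5l, Folr2, Lyve1, Cd209b and Gpnmb, which also mark macrophages of various tissues, did not pass the filter.

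Ligands of these receptors were sparse. Of 10 ligand genes, 5 were tested, 1 with higher and 4 with lower values, and 0 passed. Without WT 2 there were 3 lower and 1 higher of 4 tested. Csf1, the ligand of the CSF1 receptor, measured 3.75, 1.75 and 1.19 TPM in Srp72+/-, against 0.968, 1.23, 1.77 and 0.936 TPM in WT. Ccl2, a ligand of CCR2, was listed at 0.131, 0 and 0 TPM in Srp72+/-, against 0, 0.941, 1.03 and 1.05 TPM in WT, so the groups overlapped at 0. Its fitted log2 fold change of -4.13 ± 1.76 had the smallest p of the ligands (edgeR, unadjusted p = 0.0454, adjusted p = 0.9998), and its size depends on how libraries at 0 are handled. Pros1 and Gas6, which bridge dying cells to AXL and MERTK, had log2 fold changes of -0.19 ± 0.26 and -0.41 ± 1.21. Among 12 genes of the kinase cascade below the adaptors, 11 had lower and 1 had higher values, with a median of -0.27 and 0 calls. Without WT 2 these were 6 lower and 6 higher (median 0.13). The kinase gene Syk had the smallest p of these, at 0.51 ± 0.40, and measured 10.3, 8.11 and 12.4 TPM in Srp72+/-, against 5.43, 7.40, 6.07 and 5.47 TPM in WT. Its groups did not overlap in TPM, whereas in CPM they did, and the share of all genes without overlap in TPM was not computed. Card9 was at -1.15 ± 1.09.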

How the data were processed

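RNA from 7 libraries was analysed. Per the labels' protocols, RNA of sorted cells was amplified with the NuGen Ovation V2 system and sequenced from TruSeq V2 libraries. The deposited tables hold estimated counts (expected counts) and TPM per transcript, made with Salmon 0.12.0 per the submitters' processing notes, which also name mm10 and GRCm38.p6. Transcript release, bias options and strand setting were not given in the sources used here. Amplified reads do not each stand for 1 molecule, and the floor of 3 reads covers counting error only.

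Transcripts were assigned to genes with GENCODE M21 (136176 of 136288 matched, the rest holding at most 0.0622% of the reads). Counts were summed per gene and rounded, and the authors' TPM were summed per gene. Low genes were removed by filterByExpr (count of 10, total of 15), and libraries were scaled by TMM. Genotypes were compared in edgeR 4.0.16 (R 4.3.3) by its robust quasi-likelihood test without covariates, and p-values were adjusted by Benjamini-Hochberg (threshold 0.05). Alternatives used DESeq2 1.42.0, voom in limma 3.58.1, other scaling and filters, a length offset, a replicate block and the removal of libraries. The procedure was tested on simulated data. Members and lists were chosen with earlier results of these data known. Values in every library are given for the most abundant member of each role, the 4 members with the smallest p in each direction, the monocyte members and other members that a result turns on, and up to 3 genes with the smallest p are named per companion list, some of which are not reported here. Syk, Csf1, Itgam and Ccl2 are given for their role. Reads of close paralogs (Clec4a2, Ms4a6c, Fcgr3) were divided by the authors' tool and are uncertain, as are those of Csf1r, Cx3cr1 and Ms4a6c, which overlap genes of at least 5 CPM.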

Additional observations from a re-analysis of the deposited data

Results flagged for a closer look

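Among the WT libraries, 34 members and 3 class sums were examined for a single value far from the other 3 by Dixon's ratio (the gap to the nearest value divided by the whole range, against the 95% critical value for 4 samples), and 4 of the 37 stood out, where chance gives about 1 in 20. On the log2(CPM + 0.1) scale, Apoe was low in WT 2 (ratio 0.859), Fcgr1 was high in WT 2 (0.914) and Cd163 was high in WT 1 (0.855). The log2 of the summed TPM of the resident macrophage members was high in WT 4 (0.844), at 64.1 TPM, against 46.5 to 48.9 TPM in the other WT libraries.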

How the results depend on the processing

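The count of called members was 0 under every alternative listed above, and the count of all genes called was 0 except for 9 with DESeq2 and 0 to 1 when 1 library was left out (1 without WT 4). The median log2 fold change of the members was 0.64 with voom and sample quality weights, against -0.54, and ran from -1.12 to 0.60 when 1 library was left out. The cause of each change of direction was not tested. The log2 ratio of the resident macrophage sum was 0.35 without Apoe, against -0.059. With voom 17 of 31 members turned direction, 15 of them to higher values, Tyrobp (1.90), Fcgr3 (1.41), Ctss (1.69) and Fcgr1 (2.26) among them. Of the members named by rule, the log2 fold changes that turned with voom were -0.26 for Axl, 0.76 for Slc40a1, 1.61 for Ccr2, 1.89 for Ms4a6c, 1.09 for Csf1r, 1.13 for Fcer1g, 1.25 for Clec4a2 and 0.27 for Cd68. Axl was at -0.0068 with RLE scaling, -0.0060 with DESeq2 and -0.015 without WT 2 and Srp72+/- 1, and Slc40a1 at 0.033 with upper-quartile scaling. Without that pair of libraries Trem2 was at 0.066, Ms4a6c at 0.65, Fcer1g at 0.28 and Cd68 at 0.051. With 1 library left out the ranges were -0.35 to 0.26 for Axl, -1.59 to 1.25 for Slc40a1, -2.26 to 1.11 for Ccr2, -1.62 to 1.85 for Ms4a6c, -2.10 to 0.26 for F10, -2.19 to 0.40 for Csf1r, -1.15 to 0.60 for Fcer1g, -2.22 to 0.82 for Clec4a2, -0.84 to 0.25 for Cd68, -0.97 to 1.92 for Cx3cr1 and -0.024 to 1.5 for Clec7a. Same-numbered libraries did not deviate together (correlations of -0.35, -0.15 and 0.032), and the design text states no pairing. These correlations cannot exclude a shared batch, and the highest of those computed, 0.39, was between Srp72+/- 1 and WT 2. With the replicate number as a block and WT 4 left out, 0 genes were called, the member median was -0.28, Apoe was at 0.082 and Ms4a6c at 0.15. C1qc kept its sign but was at 0.026 with voom, and C1qa at -0.47 without WT 2 and Srp72+/- 1. Depth limits members with 3 reads or fewer in some library, among them Marco, Vsig4, Timd4, C1qa, C1qb, Fcgr1, Adgre1, Lgals3 and Cx3cr1.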

Other observations

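Other blood cell lists gave further context for the member levels. Summed TPM of 8 eosinophil, basophil and mast cell genes was between 35.5 and 203.6 in Srp72+/-, against 8.10 to 246 in WT, and that of 10 B cell genes between 237 and 5035, against 36.0 to 7244. In both lists WT 2 was the highest and WT 1 the lowest library. The dendritic cell list (10 genes) was even, at 9.86 to 19.1 TPM in Srp72+/- and 8.44 to 15.1 TPM in WT, and 11 T and NK cell genes summed to 41.1 to 79.5 TPM in Srp72+/- and 25.0 to 134 TPM in WT. The megakaryocyte list (10 genes) ran the other way, at 172 to 1061 TPM in Srp72+/- and 19.9 to 441 TPM in WT, with WT 2 the lowest. Stroma and endothelium genes (10) summed to 10.2 to 22 TPM in Srp72+/- and 2.91 to 20.0 TPM in WT.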
